A study of Mus musculus with 37 samples.

Results

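The 200 genes described here were the protein-coding genes whose transcripts were reduced most between the germinal vesicle (GV) oocyte, the fully grown oocyte before meiosis resumes, and the 2-cell embryo in control mice of the CabZ line. They were taken from 13552 eligible genes, which were listed in both CabZ tables and had no name starting with Obox, Oog, Nlrp, Zp or Rp. For each gene the log2 of the mean level plus 1 FPKM in CabZ Het GV oocytes (replicates 1 to 4) was subtracted from the same value in CabZ Het 2-cell embryos (replicates 1 and 2), and the 200 lowest differences were kept. FPKM here means reads per kilobase of gene span, introns included, scaled to the depth of each library. For the CabZ libraries the scaling was to the reads on genes. For the other libraries the authors' own scaling was kept. The members were thus chosen by measured values, those of these 6 libraries, and the difference between them is given as a description only. At the edge of the set, Irf1 (-2.80), Hist2h2aa2 (-2.80) and Ppil3 (-2.79) were just inside, and Dnajb4 (-2.78), Nprl2 (-2.78) and Shisa8 (-2.77) just outside. When the rule was applied to Het 2-cell replicates 3 and 4 in place of 1 and 2, 175 of the 200 genes were chosen again.

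The study removed subunits of the Hira complex, a histone chaperone that places histone H3.3 on chromatin. In the CabZ line a floxed Cabin1 allele, and in the ZH line a floxed Hira allele, was deleted by Zp3-Cre, whose promoter acts in the growing oocyte. The Het controls carried Zp3-Cre and 1 floxed allele, so they are heterozygous and not wild type. All mice were C57BL/6. RNA was sequenced from GV oocytes of both lines and from 2-cell embryos of mated CabZ females, with 4 Het and 4 KO libraries in each case. A further experiment injected wild-type oocytes with RNA for Zscan4d (Zscan4 OE, 3 libraries) or for GFP (4 libraries) and collected parthenogenetic 2-cell embryos, which have no paternal genome. The methods describe pooled oocytes or embryos in each library, whereas the labels speak of individual cells. No label ties a library to an animal, so the p-values measure the spread between libraries, which may be technical. Of the 200 genes, 198 were listed in the ZH table and 198 in the Zscan4 table.

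The growing oocyte stores messenger RNAs that are translated later, during meiotic maturation and after fertilisation, when transcription is silent. Cytoplasmic polyadenylation lengthens the tail of some of these messages and starts their translation. Most are then destroyed, in an early wave that uses maternal factors such as the BTG4 adaptor and the CCR4-NOT deadenylase, and in a later wave that needs transcription from the new embryonic genome. The set held transcripts known for these events, among them Mos, the kinase that holds the egg at metaphase II, H1foo, the oocyte linker histone, Plat, tissue plasminogen activator, Gdf9 and Bmp15, growth factors that signal to the granulosa cells, and Zar1, an RNA-binding protein needed after fertilisation.

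A level in these tables is relative to all reads of its library, so the loss of a transcript and a gain of other transcripts cannot be told apart. The kit primed on the poly(A) tail, so fewer molecules and shorter tails cannot be told apart, and in pooled samples fewer cells of a kind and less RNA per cell cannot be told apart. The reads carried no strand. Of the 200 genes, 58 overlapped another gene, where reads of the partners cannot be separated, and near-identical family members (Fbxw, Oas1 and Prame-like genes) may share reads.

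Because cytoplasmic polyadenylation is the best-known control of stored oocyte messages, the ends of the annotated transcripts were read. The element TTTTAT or TTTTAAT stood in the last 100 bases of the 3′ untranslated region of 34 of the 165 members whose untranslated region was that long (20.6%), beside 19.4% of all eligible genes. The 7 stretches shown are those of the members named by the rule for named genes in which that element and the hexamer AATAAA fell within 30 bases. Each is given 5′ to 3′ on the transcript's strand from the GRCm38 genome with GENCODE annotation, all 7 lie in the 3′ untranslated region, and capitals mark the element and the hexamer, which share bases in AU022751 and Tpra1.
Gdf9, chr11:53437862-53437891, plus strand: gtggTTTTATgtgacggaagAATAAActgt
Bcl2l10, chr9:75351590-75351619, plus strand: tTTTTAATaacttcaaattcttAATAAAtg
D6Ertd527e, chr6:87112953-87112982, plus strand: TTTTATtattgtttgtttatttcAATAAAg
AU022751, chrX:6081232-6081261, minus strand: taattaagtaTTTTAATAAAgtaagtttta
Tpra1, chr6:88912199-88912228, plus strand: ttgatctattTTTTAATAAAaataaaaaga
Bub1b, chr2:118641556-118641585, plus strand: cactgtgtaTTTTATAATAAAatagttttt
Senp8, chr9:59734267-59734296, minus strand: ttattcctaTTTTATAATAAAtaaatgcaa
A match of these letters is a description and not a site of known use.

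In GV oocytes the 200 genes took a large share of the message pool. They held 15.27% to 15.96% of the reads on genes in the 4 CabZ Het GV libraries and 14.18% to 14.57% in the 4 CabZ KO GV libraries, so the groups did not overlap. In 2-cell embryos they held 0.694% and 1.0% in CabZ Het replicates 3 and 4, which the rule did not use, and 1.92%, 2.16%, 2.23% and 3.44% in the KO libraries. Every KO embryo library was thus above both of these Het libraries, and replicate 4 was the highest KO library. In the ZH oocytes, which the rule did not use, the share was 14.65% to 15.63% in ZH Het and 11.28% to 12.19% in ZH KO. In parthenogenetic 2-cell embryos it was 3.08% to 4.05% with GFP and 3.70%, 4.45% and 4.88% with Zscan4 OE, which overlapped.

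**Figure D1:**
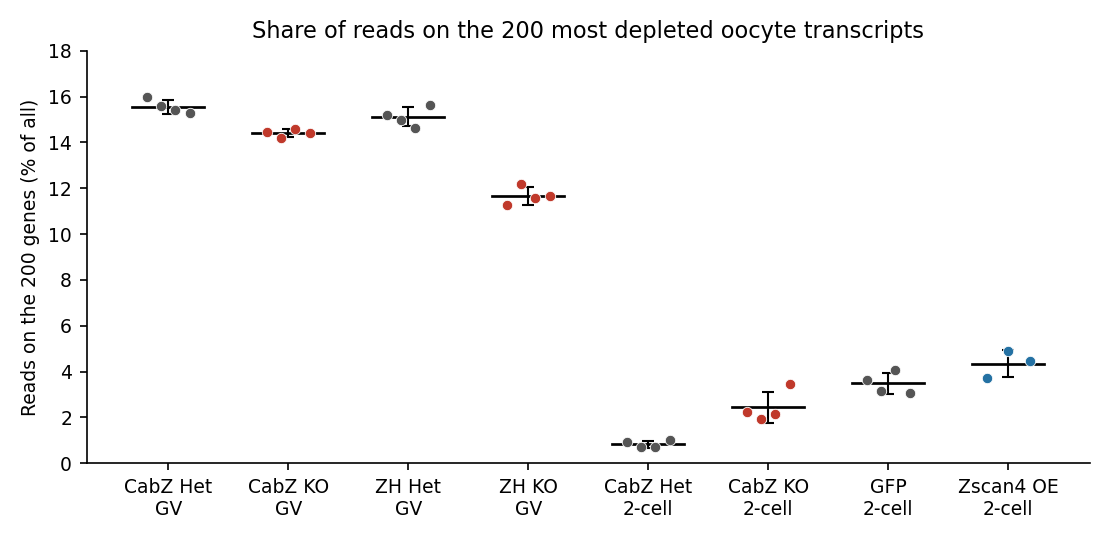
Share of reads on the 200 genes (percent of all reads on genes, y axis) in each RNA-seq library, by group (x axis). Points are libraries, and bars are the mean and SD. The GV groups sit between 11.28% and 15.96% and the 2-cell groups between 0.694% and 4.88%, with all 4 CabZ KO embryo libraries above CabZ Het replicates 3 and 4.

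The reduction was also present in CabZ KO, none of whose libraries chose the genes. Between CabZ KO GV oocytes and CabZ KO 2-cell embryos the median difference was -2.58 on the log2(FPKM + 1) scale, with 197 lower and 189 lower by more than 1. Over all eligible genes the KO median was 0.00944. Between CabZ Het GV oocytes, whose high values are part of the rule, and Het 2-cell replicates 3 and 4, the median was -3.33, and all 200 genes were lower by more than 1. In terms of the level left, a member kept a median of 5.52% of its Het GV level in Het replicates 3 and 4 (quartiles 3.01% and 8.25%, maximum 22.8%), and 11.8% of its KO GV level in KO embryos (quartiles 6.55% and 20.1%). The Het shares are divided by oocyte values that chose the genes, so the shares of the 2 genotypes are given side by side only. No test was run across the GV and 2-cell tables, which were normalised separately. From ZH Het oocytes to GFP embryos, a different line and a different way of making embryos, the median was -2.76 and 193 of 198 genes were lower.

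Some transcripts were not lower, or less so, in KO embryos. Gng3, a G protein gamma subunit, stood at 161% of its KO oocyte level, Svbp, the small partner of the vasohibin tubulin carboxypeptidases, at 117%, Dynlt1b, a dynein light chain, at 100%, and the tubulin Tubb2a at 60.4%. Transcripts kept from the oocyte and transcripts made by the embryo cannot be told apart in such values. At the other end, Mos stood at 2.98% in KO and 0.0549% in Het replicates 3 and 4.

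**Figure D2:**
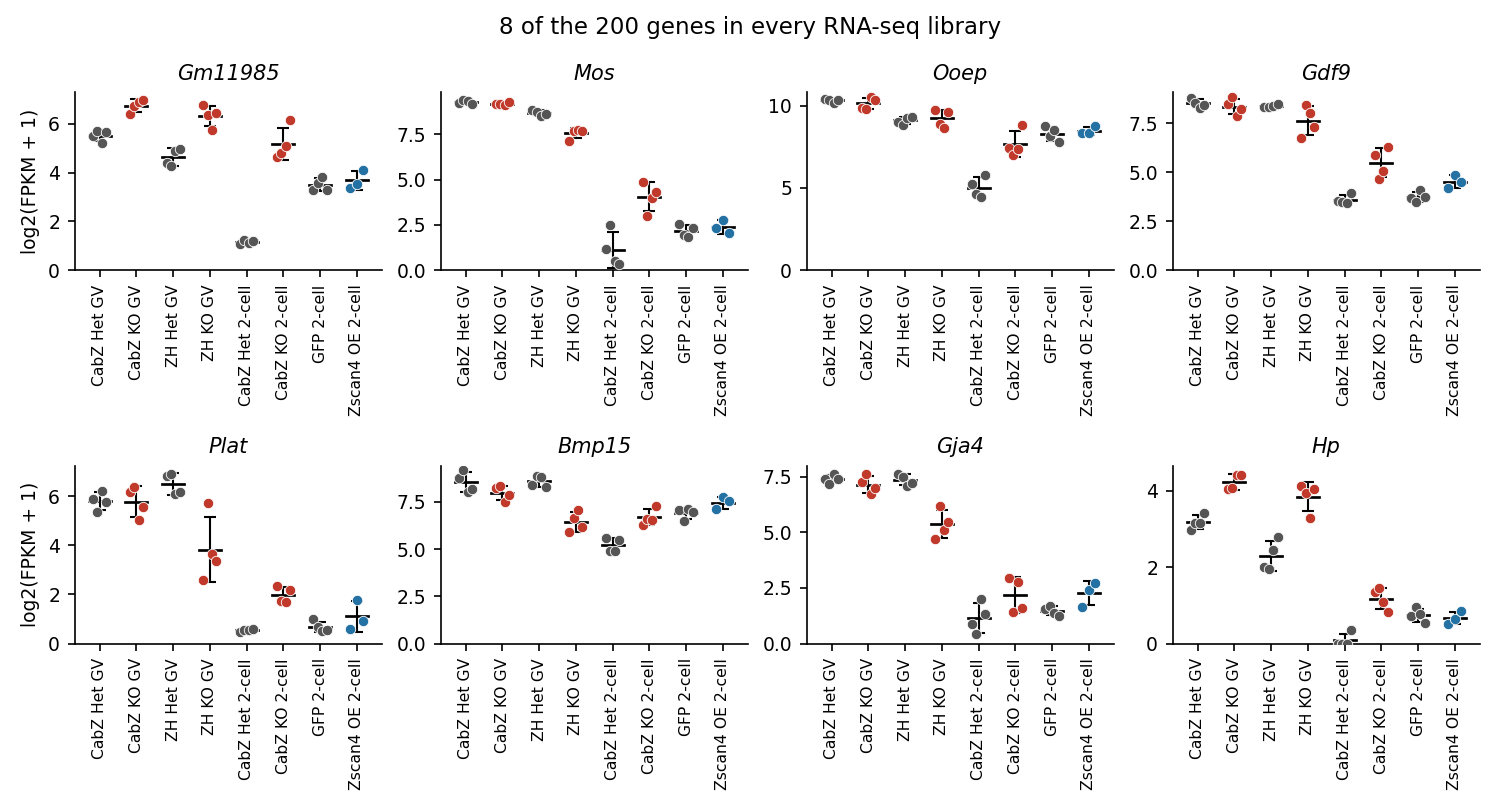
Levels of Gm11985, Mos, Ooep, Gdf9, Plat, Bmp15, Gja4 and Hp in every RNA-seq library, as log2(FPKM + 1) on the y axis, by group on the x axis. Points are libraries (grey for controls, red for KO, blue for Zscan4 OE), and the bars are the mean and SD on that scale. Every gene has a lower mean in the CabZ 2-cell group than in the CabZ GV group of the same genotype. Gm11985 in CabZ KO embryos overlaps CabZ Het oocytes. Mos goes from 588 to 660.3 FPKM in CabZ Het oocytes to 0.251 to 4.69 FPKM in CabZ Het embryos.

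Reads on genes were estimated from the steps between low values and are not counts. By this estimate the CabZ KO 2-cell libraries held 5764954 to 6269681 reads on genes, all fewer than the Het libraries (7872622 to 8158880). The libraries of the other groups held 8996876 to 21869858. The part of depth in the results was not tested. Cabin1 was lower in the KO groups of the CabZ line (0.119 ± 0.0312 against 0.0242 ± 0.0167 FPKM in GV oocytes and 0.322 ± 0.0978 against 0.134 ± 0.0497 FPKM in 2-cell embryos, SD, n = 4 each). Hira was too low in the ZH table to check its labels, at 0.00669 ± 0.00534 FPKM in ZH Het and 0.00378 ± 0.00412 FPKM in ZH KO (SD, n = 4 each). The other subunit was lower as well, Cabin1 at 0.286 ± 0.041 in ZH Het and 0.0864 ± 0.0175 FPKM in ZH KO oocytes, and Hira at 0.233 ± 0.0348 in CabZ Het and 0.0434 ± 0.0196 FPKM in CabZ KO 2-cell embryos (SD, n = 4 each). The label markers were present as labelled. Of the cumulus and granulosa cell markers, 13 of the 20 listed had a mean under 0.1 FPKM in CabZ Het and 9 in CabZ KO 2-cell embryos, and 18 of 21 in ZH Het and 15 in ZH KO oocytes. Their summed level was 4.26 to 6.83 FPKM in CabZ Het and 3.35 to 6.81 FPKM in CabZ KO 2-cell embryos, and 0.895 to 1.19 FPKM in ZH Het and 2.3 to 3.53 FPKM in ZH KO oocytes. Their part in the results was not tested.

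In CabZ 2-cell embryos, the members were mostly higher in KO than in Het. The question was how much of these oocyte transcripts remained when Cabin1 had been deleted in the mother's oocytes. Only Het replicates 3 and 4 entered, since 1 and 2 had chosen the genes. Replicates 3 and 4 share the genotype and stage of 1 and 2. Genes lower in Het than in KO embryos were therefore more likely to be chosen, and the comparison is not fully independent of the rule. Over all 200 members, filtered or not, every KO library was above both Het libraries for 121 genes (60.5%) and below both for 5 (2.5%), where 23.8% and 19.6% of all genes in the table did so. Without a filter on low levels, limma called 58 members higher (29%) and 0 lower, beside 3.85% and 4.94% of all genes. In Het replicates 3 and 4, 136 of the 200 members had a mean of at least 1 FPKM. The others were near the floor and had little room to be lower in KO, so the counts of lower members are a description. With the filter of a mean of at least 1 FPKM, 166 members were tested among 7883 genes, and 75 were called higher (45.2%) and 1 lower (0.602%). The background was 15.7% of all genes tested called higher and 19.9% called lower, where a call asks for more than a 2-fold change and an adjusted p under 0.05. The groups did not overlap, with KO higher, for 109 members (65.7%, background 28%) and with KO lower for 4 (2.41%, background 33.7%). The median log2 fold change was 1.02 over members tested and -0.07 over all genes tested. Of the 34 members too low to test, 26 had a KO mean above the Het mean. A member low in Het embryos could pass the filter only through its KO level, so the counts after the filter are a description.

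The number of calls rested on Het replicate 3. Without it, the comparison had 1 Het library left, whose spread was then taken from the KO libraries. Fewer genes were called without it, among members and among all genes tested. The median log2 fold change without it was 0.87 over members and -0.08 over all genes tested. Of the 33 named members called in this comparison, 26 were not called without it, and 7 were called under every alternative, namely Gm11985, Mos, Gng3, Svbp, Gm13089, Gm13103 and 1110012L19Rik. KO replicate 4 had the highest level of the 4 KO libraries for 113 members. Summed oocyte markers, 6 of which are members, were 130 to 198 FPKM in Het and 322 to 581 FPKM in KO embryos, and summed 2-cell markers were 772 to 1350 FPKM in Het and 841 to 2230 FPKM in KO. Their part in the members' values was not tested.

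**Figure D3:**
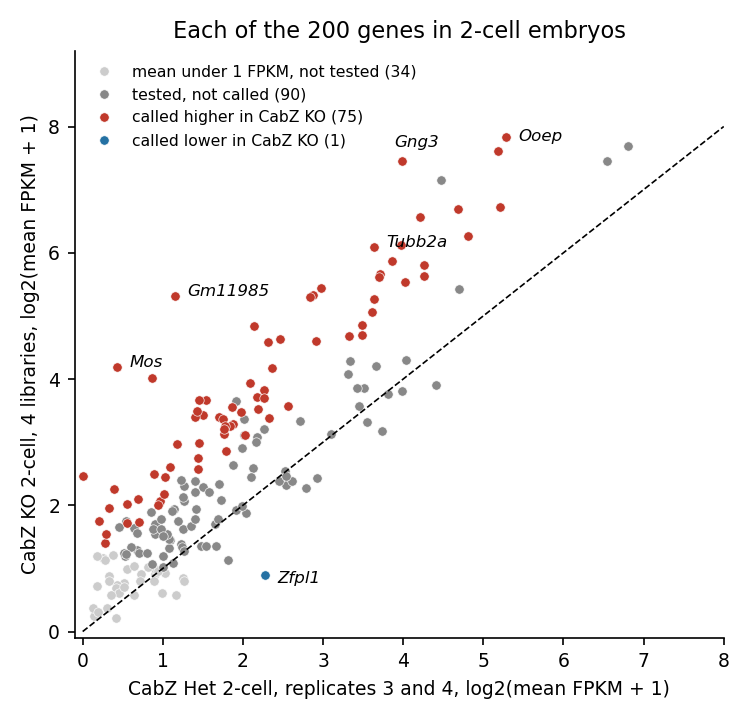
Mean level of each of the 200 genes in CabZ Het 2-cell replicates 3 and 4 (x axis) and in the 4 CabZ KO 2-cell libraries (y axis), both as log2(mean FPKM + 1). Points are genes, coloured by their call, and the dashed line marks equal levels. Most points lie above the line, 75 are called higher, and Zfpl1 alone is called lower.

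Mos, Gm11985 and Gng3 had the largest fold changes of the members called higher. Mos, the meiotic kinase, had 0.432 and 0.251 FPKM in Het replicates 3 and 4 and 28.7, 6.83, 14.9 and 18.9 FPKM in the KO libraries. The Het libraries held only an estimated 5 and 3 reads on the gene and the KO libraries 62 to 243, so all KO values were above both Het values. Its log2 fold change was 3.62 (SE 0.494, limma adjusted p = 0.00412), and Het replicate 2, which chose the genes, had 4.69 FPKM. Gm11985, a gene of unknown function, had 1.13 and 1.3 FPKM in Het and 24.1, 27.3, 33.1 and 69.9 FPKM in KO (log2 fold change 4.03, SE 0.424, limma adjusted p = 0.00337). It had the largest log2 fold change of the members tested. Gng3 had 10.5 and 19.2 FPKM in Het and 123, 171, 162 and 239 FPKM in KO (3.48, SE 0.346, limma adjusted p = 0.00309). It overlaps Bscl2 on the other strand, so its reads cannot be assigned with certainty.

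Svbp and 2 cytoskeleton members were also called higher. Svbp had 0.439 and 1.22 FPKM in Het and 26.7, 10.6, 10.0 and 13.1 FPKM in KO (log2 fold change 3.07, SE 0.419, limma adjusted p = 0.00412). Tubb2a had 5.29 and 17.6 FPKM in Het and 101, 53.6, 59.3 and 54.3 FPKM in KO (2.6, SE 0.473, limma adjusted p = 0.00646). KO replicate 1 was the highest for both genes. Of the 3 cytoskeleton members, Tuba3a and Tubb2a were called and Tubb6 was not (-0.10), while over the whole cytoskeleton list 14 of 49 genes tested were called higher and 5 lower. Dynlt1b had 7.15 and 6.53 FPKM in Het and 42.1, 26.7, 43.4 and 57.7 FPKM in KO (2.42, SE 0.317, limma adjusted p = 0.00394).

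All 5 secreted factors among the members were called higher in KO embryos. Gdf9 had 9.83 and 14.1 FPKM in Het and 58.6, 24.6, 32.2 and 77.7 FPKM in KO (log2 fold change 1.80, SE 0.474, limma adjusted p = 0.0202), and Bmp15 had 28.3 and 43.7 FPKM in Het and 76.6, 96.7, 91.4 and 154 FPKM in KO (1.5, SE 0.338, limma adjusted p = 0.0123). Plat, at 0.449 and 0.498 FPKM in Het and 2.23 to 4.10 FPKM in KO, Fgf8, a fibroblast growth factor, at 0.205 and 0.298 FPKM in Het and 1.70 to 5.0 FPKM in KO, and Oosp2, an oocyte-secreted protein, at 1.89 and 2.83 FPKM in Het and 6.91 to 12.6 FPKM in KO, had log2 fold changes of 1.43, 1.56 and 1.6. In all 5 the KO libraries lay above both Het libraries. The direction of the median of these 5 was the same under each scaling tried. Over the whole list of secreted factors and receptors, 8 of 17 genes tested were called higher and 1 lower.

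Of the 6 members that belong to the subcortical maternal complex or are known as maternal-effect genes, all had a log2 fold change above 0 and 2 were called higher, Ooep and Zar1. Ooep, a structural subunit of the complex, had 21.2 and 54.7 FPKM in Het and 173, 127, 168 and 446 FPKM in KO (log2 fold change 2.53, SE 0.571, limma adjusted p = 0.0124). Zar1 had 2.14 and 3.71 FPKM in Het and 14.4, 6.32, 5.86 and 14.0 FPKM in KO (1.43, SE 0.428, limma adjusted p = 0.0316). Khdc3, Tle6, Padi6 and Nobox were not called, with log2 fold changes of 0.47, 0.99, 0.69 and 1.08. Over the whole list 4 of 19 genes tested were called higher and 0 lower.

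Of the 3 members of the meiosis and cell division list, Mos and H1foo were called higher and Bub1b was too low to test, while over the whole list 4 of 52 genes tested were called higher and 16 lower. Of the 3 chromatin members, H1foo and Zfp57 were called higher and Dnmt1 was too low to test, while over that list 3 of 21 were higher and 5 lower. H1foo had 6.76 and 17.5 FPKM in Het and 46.9, 29.9, 29.5 and 91.5 FPKM in KO embryos (log2 fold change 1.91, SE 0.547, limma adjusted p = 0.0272). Zfp57, which protects imprints from demethylation, had 13.2 and 17.3 FPKM in Het and 36.6, 38.1, 37.0 and 70.1 FPKM in KO (1.47, SE 0.328, limma adjusted p = 0.0119). Dazl, a germ cell translational activator, had 5.26 and 17.5 FPKM in Het and 32.1 to 41.6 FPKM in KO (1.83, limma adjusted p = 0.0128), while Zar1l, the relative of Zar1, was not called (0.37). Ldhb, the heart-type lactate dehydrogenase subunit, had 17.1 and 25.1 FPKM in Het and 50.7, 51.9, 105 and 358 FPKM in KO, with replicate 4 far above the others, and was not called (2.21, SE 0.771, limma adjusted p = 0.0523). Gm813, lowest of all 200 by the rule, had 1.59 and 4.48 FPKM in Het and 19.3, 5.41, 5.93 and 6.55 FPKM in KO and was not called (1.27, SE 0.539, limma adjusted p = 0.0935).

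Members of neighbouring gene families were mostly higher in KO as well. Within 200000 bases of another member lay 39 of the 200 genes. The 13 Fbxw members, F-box proteins of the SCF ubiquitin ligases, all lie on chromosome 9 between 109139447 and 109790671 (GRCm38). Of these, 12 had a log2 fold change above 0 and 7 were called higher (median 1.22). Fbxw14 had 15.7 and 20.6 FPKM in Het and 49.4, 49.6, 43.9 and 52.0 FPKM in KO, and Fbxw28 had 8.82 and 13.6 FPKM in Het and 27.8 to 35.2 FPKM in KO. The 4 Oas1 members (Oas1c, Oas1d, Oas1e and Oas1h), of the 2′-5′ oligoadenylate synthetase family, lie on chromosome 5 between 120786226 and 120921653 and all 4 were called higher (log2 fold changes 1.0 to 1.6). Of the 5 Prame-like members on chromosome 4 (143696500 to 144377934), 4 were called higher. Among them Gm13089 had 2.99 and 3.79 FPKM in Het and 23.9, 24.8, 31.9 and 29.8 FPKM in KO (2.70, SE 0.229, limma adjusted p = 0.00268), the smallest adjusted p of the members. The directions of these 3 family medians were the same under each scaling tried. Genes of a family are similar in sequence and are not independent observations.

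Of the members in no list and no family described here, 46 of 117 tested were called higher and 1 lower. 1110012L19Rik had 3.57 and 8.71 FPKM in Het and 31.1 to 46.5 FPKM in KO (log2 fold change 2.54, limma adjusted p = 0.00412), Glrx, a glutaredoxin, had 1.52 and 6.44 FPKM in Het and 16.5 to 37.5 FPKM in KO (2.40, limma adjusted p = 0.00966), and E330017A01Rik had 4.87 and 7.74 FPKM in Het and 21.1 to 54.9 FPKM in KO (2.41, limma adjusted p = 0.00502). Zfpl1, a zinc-finger protein of the Golgi, alone was called lower, with 3.83 and 3.86 FPKM in Het and 1.55, 0.0382, 0.529 and 1.36 FPKM in KO (-1.46, SE 0.389, limma adjusted p = 0.0211). Het replicate 1, outside the test, had 0.571 FPKM of Zfpl1, within the KO range.

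In CabZ GV oocytes the members differed little between KO and Het, where the Het libraries had chosen them and no test was run. The median difference was -0.12 on the log2(FPKM + 1) scale, 127 of 200 members were lower in KO, 4 were lower by more than 1 and 3 were higher by more than 1. Gm11985 had 36.4 to 50.9 FPKM in Het and 83.3 to 126 FPKM in KO oocytes, Hp, haptoglobin, had 6.82 to 9.70 FPKM in Het and 15.4 to 20.2 FPKM in KO, and Gm813 had 684 to 809 FPKM in Het and 389.6 to 585 FPKM in KO. The KO oocyte values of Gm11985 and Hp lay above the Het values, while those of Mos, at 588 to 660.3 FPKM in Het and 551 to 619.6 FPKM in KO, overlapped. For 33 members all 4 KO oocyte libraries lay below all 4 Het libraries, and 19 of these 33 had all KO embryo libraries above both Het embryo libraries, that is 16.5% and 9.5% of the members beside 7.74% and 1.58% of all eligible genes. For 23 members all KO oocyte libraries lay above all Het libraries, and 19 of these were also above in the embryo (11.5% and 9.5%, beside 10.5% and 5.06%). The Het oocyte libraries chose the genes, and nothing is read from these counts.

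In ZH oocytes, where Hira was deleted and no library had chosen the genes, the members were mostly lower in KO. Of the 198 listed, all 4 KO libraries were below all 4 Het libraries for 94 (47.5%) and above for 20 (10.1%), where 13.3% and 21.8% of all genes in the table did so. Without a filter 47 were called lower (23.7%, background 1.43%) and 7 higher (3.54%, background 2.67%). After the filter 197 members were tested among 5792 genes. limma called 54 lower (27.4%, background 7.2%) and 8 higher (4.06%, background 10.5%). Without ZH Het replicate 2 the number higher was 5. The median log2 fold change was -0.60 over members and -0.04 over all genes tested. The split of calls over all genes tested, 606 higher and 417 lower, depended on scaling (471 and 627 with median scaling, 958 and 372 when scaled to the reads of the table), whereas the members were called lower more often than higher each time (73 and 4, and 47 and 11). Summed oocyte markers were 2560 to 3020 FPKM in ZH Het and 1150 to 2180 FPKM in ZH KO, and summed 2-cell markers were 99.9 to 135 FPKM in Het and 347 to 499 FPKM in KO. Their part in the members' values was not tested.

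**Figure D4:**
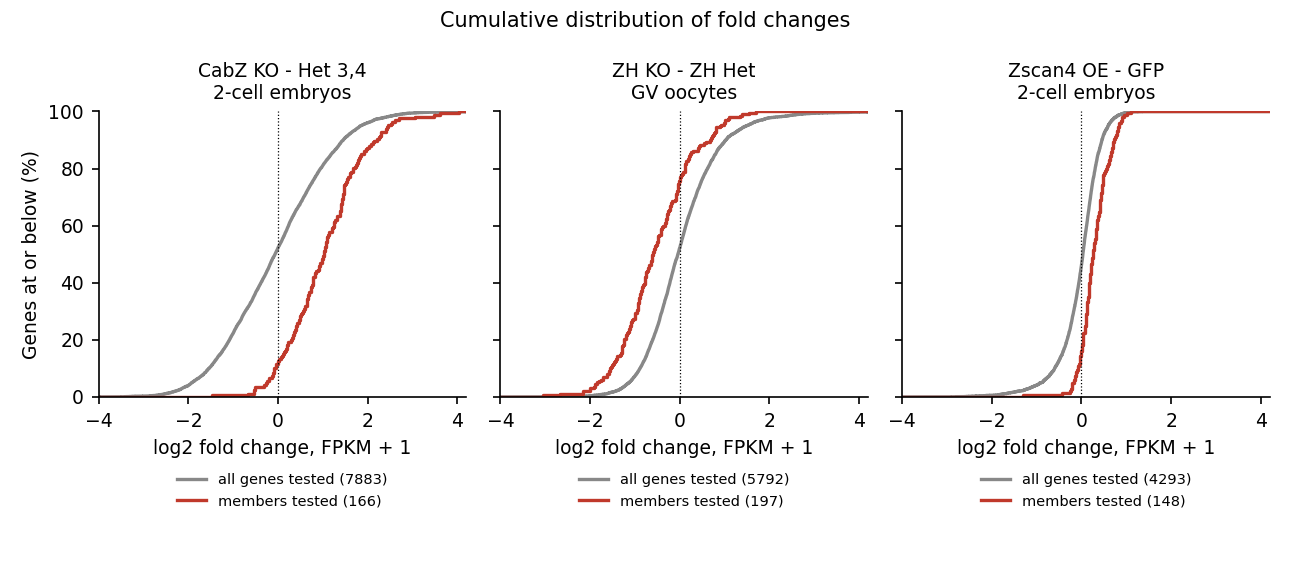
Cumulative share of genes (y axis, percent) at or below each log2 fold change of FPKM + 1 (x axis), for members tested (red) and all genes tested (grey), in the 3 comparisons. The member medians are 1.02, -0.60 and 0.26, beside -0.07, -0.04 and 0.03 over all genes.

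The transcripts that fell most in ZH KO oocytes were AU022751, Plat and E330021D16Rik. AU022751, an X-linked gene of unknown function, had 382, 344, 249 and 242 FPKM in Het and 16.0, 94.2, 36.1 and 27.8 FPKM in KO (log2 fold change -3.04, SE 0.44, limma adjusted p = 0.000477). Plat had 113, 118, 66.3 and 70.4 FPKM in Het and 4.99, 51.2, 11.4 and 9.28 FPKM in KO (-2.67, SE 0.56, limma adjusted p = 0.00352). In both genes KO replicate 2 was the highest KO library and the groups did not overlap. E330021D16Rik had 178 to 241 FPKM in Het and 36.3 to 53.1 FPKM in KO (-2.16, SE 0.157, limma adjusted p = 9.37e-06). Tpra1, a membrane receptor-like protein, had 16.1 to 27.1 FPKM in Het and 1.53, 7.35, 9.08 and 3.24 FPKM in KO (-2.01, SE 0.4, limma adjusted p = 0.00269), and Dbndd1 had 17.3 to 27.7 FPKM in Het and 2.37 to 9.87 FPKM in KO (-1.90, limma adjusted p = 0.00101).

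Among the secreted factors Bmp15 fell as well, with 336, 470.5, 455 and 305 FPKM in ZH Het and 58.1, 97.9, 131 and 71.2 FPKM in ZH KO (log2 fold change -2.16, SE 0.256, limma adjusted p = 0.000152), and Fgf8 fell from 14.6 to 19.2 FPKM to 4.96 to 7.93 FPKM (-1.25, limma adjusted p = 0.000156). Gdf9 had 324 to 355 FPKM in Het and 106, 346, 261 and 160.0 FPKM in KO and was not called (-0.75, SE 0.313, limma adjusted p = 0.0672), and Oosp2 was at -0.03. Gja4, the connexin of oocyte gap junctions, had 199, 179, 137 and 149 FPKM in Het and 25.2, 70.9, 33.0 and 43.6 FPKM in KO (-2.01, SE 0.281, limma adjusted p = 0.0004). Of the whole list of secreted factors and receptors, 11 of 18 genes tested were called lower and 0 higher.

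Of the 3 meiosis members 2 were called lower, Mos and Bub1b, and over that list 2 of 49 genes tested were called higher and 5 lower. Mos had 459, 430.2, 369 and 388 FPKM in ZH Het and 141, 203, 213 and 207 FPKM in ZH KO (log2 fold change -1.12, SE 0.158, limma adjusted p = 0.000425). Bub1b, a spindle checkpoint kinase, had 10.9 to 14.8 FPKM in Het and 2.37 to 5.11 FPKM in KO (-1.85, limma adjusted p = 0.000103). H1foo had 879.9 to 1333 FPKM in Het and 512 to 687 FPKM in KO, with no overlap, but missed the fold threshold (-0.90, limma adjusted p = 0.00158). Of the 6 maternal-effect members Khdc3, Tle6, Nobox and Zar1 were called lower (-1.12, -1.3, -1.53 and -1.24), while Padi6 (-1.0) and Ooep (0.12) were not. ZH KO replicate 2, with 108 FPKM of Tle6 and 346 FPKM of Gdf9, was within the Het range for both. Dnmt1, the maintenance DNA methyltransferase, had 5.97 to 10.3 FPKM in Het and 2.5 to 3.94 FPKM in KO (-1.09, limma adjusted p = 0.00104). Gm813 had 254 to 366 FPKM in Het and 85.7 to 149 FPKM in KO (-1.29, limma adjusted p = 0.000678).

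The 8 members that rose in ZH KO oocytes were Gm11985, Hp, Gm29797, Ccdc105, Gstt2, 1110012L19Rik, Figla and Gm13089. Gm11985 had 19.7, 18.6, 29 and 30.5 FPKM in Het and 107, 82.3, 53.3 and 85.5 FPKM in KO (log2 fold change 1.70, SE 0.237, limma adjusted p = 0.000392). Hp had 2.83 to 5.85 FPKM in Het and 16.4, 14.3, 8.70 and 15.4 FPKM in KO (1.55, SE 0.238, limma adjusted p = 0.000659). Gstt2, a glutathione transferase, had 6.37 to 11.7 FPKM in Het and 13.9 to 22.6 FPKM in KO (1.09, limma adjusted p = 0.00267), and Figla, a transcription factor of the early follicle, had 5.57 to 8.06 FPKM in Het and 12.5 to 16.5 FPKM in KO (1.01, limma adjusted p = 0.000557). KO replicate 3 was the lowest of the KO libraries for Gm11985, Hp and Gstt2. All 8 also had a higher mean in CabZ KO than in CabZ Het oocytes, and 48 of the 54 that fell had a lower mean there, differences that were not tested. The CabZ Het oocyte libraries had chosen the members. Of all 200 members, 127 (63.5%) had a lower mean in CabZ KO oocytes, beside 49.1% of eligible genes.

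In ZH oocytes few members of the Fbxw and Oas1 clusters passed the test. Of the 13 Fbxw members 1 was called lower (Fbxw21, -1.04) and the median was -0.11, which turned to 0.04 when scaled to the reads of the table. Fbxw14 overlapped between groups, at 119 to 169 FPKM in Het and 109 to 148 FPKM in KO. Of the 4 Oas1 members 1 was called lower, Oas1c, with 76.0 to 116 FPKM in Het and 17.1 to 56.1 FPKM in KO (log2 fold change -1.41, limma adjusted p = 0.00955). Whether these clusters differ from the other members was not tested. The 5 Prame-like members went both ways, with Gm13103 (154 to 209 FPKM in Het, 76.1 to 91.6 FPKM in KO, -1.08) and C87977 (-1.41) called lower, and Gm13089 (22.4 to 48.2 FPKM in Het, 39.6 to 114 FPKM in KO, 1.00) called higher.

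Of the 165 members tested in both comparisons, 15 were higher in CabZ KO embryos and lower in ZH KO oocytes (9.09%, beside 1.14% of the 4546 genes tested in both). Each call alone was also more frequent among these members. Of them 45.5% were higher in CabZ KO embryos and 24.8% lower in ZH KO oocytes, beside 17.6% and 7.06% of the 4546 genes. Whether the 2 calls met more often than these shares give was not tested. They were Mos, E330017A01Rik, Zar1, Plat, Fgf8, Cd164l2, Oas1c, Rdx, Fam151a, Bmp15, D6Ertd527e, Senp8, H2afx, Txndc2 and Gm13103. D6Ertd527e had 23.9 and 25.4 FPKM in CabZ Het embryos and 75.7 to 155 FPKM in KO (log2 fold change 1.97, limma adjusted p = 0.0048), and 191 to 212 FPKM in ZH Het oocytes and 25 to 81.1 FPKM in ZH KO (-1.92, limma adjusted p = 0.00078). Senp8, a deneddylase, had 0.647 and 1.45 FPKM in Het embryos and 4.17 to 4.95 FPKM in KO (1.44, limma adjusted p = 0.00511), and 9.26 to 12.2 FPKM in ZH Het oocytes and 3.44 to 5.32 FPKM in ZH KO (-1.13, limma adjusted p = 0.000392). Higher in both were 5 members, Gm11985, 1110012L19Rik, Ccdc105, Gm13089 and Gm29797 (3.03%, beside 3.32%). A further 55 were called higher in embryos only, 1 lower in embryos only, 26 lower and 2 higher in oocytes only, and 61 in neither. The lines, subunits and stages differ, so the values stand side by side and no test joins them.

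**Figure D5:**
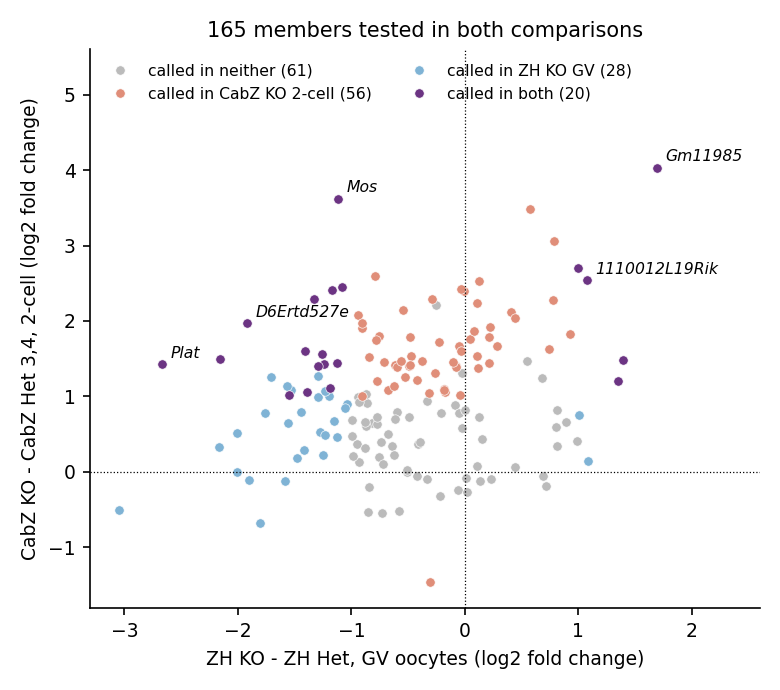
Log2 fold change of the 165 members tested in both, in ZH KO against ZH Het GV oocytes (x axis) and in CabZ KO against CabZ Het 2-cell embryos (y axis). Points are genes, coloured by the comparisons that call them. Mos (-1.12 and 3.62) and Plat (-2.67 and 1.43) lie at the upper left, and Gm11985 (1.70 and 4.03) lies at the upper right.

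With Zscan4 OE no member was called. After the filter 148 members were tested among 4293 genes, and limma called 0 higher and 0 lower, beside 0.0233% and 1.42% of all genes tested. Without a filter the counts were also 0 and 0, beside 0% and 0.0315% of all genes. All OE libraries were above all GFP libraries for 19 of 198 members (9.6%, background 6.89%) and below for 1 (0.505%, background 6%). Without OE replicate A 1 member was called higher. At an unadjusted p under 0.05, 27 members were higher (18.2%) and 1 was lower (0.676%), beside 8.43% and 11.4% of all genes tested. The log2 fold change was above 0 for 124 of the 148 (83.8%, against 53.9% of all genes tested), and the median was 0.26 beside 0.03. Zfp57 had 44.6, 19.1, 33.9 and 17.2 FPKM with GFP and 39.9, 82.4 and 60.7 FPKM with Zscan4 OE (1.11, SE 0.364, limma adjusted p = 0.149), and Oas1d had 30.0 to 53.4 FPKM with GFP and 62.3, 115 and 63.5 FPKM with OE (1.02, SE 0.277, limma adjusted p = 0.109). Dynlt1b, the lowest, had 3.47, 4.72, 7.25 and 4.29 FPKM with GFP and 2.33, 1.39 and 0.611 FPKM with OE (-1.3, SE 0.284, limma adjusted p = 0.0618). The groups overlapped for Zfp57 and not for Oas1d and Dynlt1b. Summed 2-cell markers were 823 to 1180 FPKM with GFP and 351 to 747 FPKM with OE, and their part in these values was not tested.

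The factors that clear or store maternal messages were looked at beside the members, from lists of 39 and 37 genes. In CabZ 2-cell embryos 3 of the 18 clearance genes tested were higher in KO and 1 lower, where 15.7% and 19.9% of all genes tested were called. Btg4, the adaptor that brings the deadenylase to maternal messages, was at a mean of 51.8 FPKM in Het and 125 FPKM in KO (log2 fold change 1.3, limma adjusted p = 0.0154), and Cnot7, a catalytic deadenylase subunit, at 31.1 and 78.8 FPKM (1.33, limma adjusted p = 0.0051), while its paralogue Cnot8 was lower (-1.26, limma adjusted p = 0.00672). Dcp2, the decapping enzyme, was higher (1.11, limma adjusted p = 0.0145). Of the 15 storage and translation genes tested 4 were higher, namely Dazl, Zar1, Ybx2, a protein that coats stored messages (1.15, limma adjusted p = 0.0123), and Eif4e1b, the oocyte cap-binding protein (1.25, limma adjusted p = 0.018). Pabpc1, the somatic poly(A)-binding protein, was lower, at 6.97 and 1.35 FPKM (-1.78, limma adjusted p = 0.00424). Of these genes Btg4, Cnot7, Cnot8, Dcp2, Dazl, Zar1, Ybx2 and Eif4e1b were not called without Het replicate 3.

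In ZH oocytes 6 of 16 clearance genes and 6 of 15 storage genes tested were lower in KO and 0 were higher, where 7.2% and 10.5% of all genes tested were called. Btg4 went from a mean of 43.6 to 10.4 FPKM (log2 fold change -1.97, limma adjusted p = 3.97e-06), Dcp1a from 4.40 to 1.12 FPKM (-1.35, limma adjusted p = 0.000142) and Cnot7 from 28.4 to 11.9 FPKM (-1.19, limma adjusted p = 0.00133). Cnot3 (-1.14), Cnot8 (-1.04) and the member Pabpn1l, an embryonic poly(A)-binding protein (-1.20), were the other clearance genes called. Eif4enif1, which holds messages silent, was at -1.41, Rbpms2 at -1.19, Stau1 at -1.12, Igf2bp2 at -1.03 and Lsm14b at -1.02, and Zar1 completed the storage genes called lower.

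The remaining lists held few members. Of the 3 egg coat and fertilisation members (Astl, Izumo1r and Rgs2) 1 of 2 tested was called higher in CabZ KO embryos and 0 of 3 in ZH oocytes. Of the oocyte transcription factors Figla, Nobox and Zfp57, 1 of 3 was called higher in embryos. Gtsf1, of the small RNA machinery, and Ldhb were called in neither. The oxidative phosphorylation members Ndufa8, Ndufaf3, Ndufb4 and Sdhd were called in neither comparison, while of the whole list 6 genes were higher and 26 lower of 92 tested in embryos and 16 higher and 3 lower of 87 in ZH oocytes. Of the 12 members of ubiquitin conjugation and removal, which include the Fbxw genes that the list holds, 6 were called higher in embryos and 1 lower in ZH oocytes.

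Members were short genes. FPKM per gene span gives a short gene a higher level for the same number of reads, and the part of this in the short spans was not tested. The median span was 7076 bases, against 13460 for eligible genes with at least 1 FPKM in CabZ Het oocytes and 25720 for all eligible genes. The median 3′ untranslated region was 348 bases (695 and 955), and the median exon number was 5 (7 and 9). The polyadenylation element, in 20.6% of members, was in 20.2% of the expressed genes. The Pumilio motif TGTANATA was in 3.64% of members and 4.92% of eligible genes, the AU-rich TATTTAT in 4.24% and 4.31%, and AATAAA in 63.0% and 66.3%, all on the sense strand of the last 100 bases. In the last 300 bases the element was in 34.5% of 116 members and 37.9% of eligible genes. Of the 29 members tested that held the element, 14 were called higher in CabZ KO embryos (median log2 fold change 1.31), and of the 109 without it 46 were higher and 1 lower (0.94). In ZH oocytes 15 of 34 with the element were lower (-0.92), and of 128 without it 33 were lower and 6 higher (-0.56). No test was made of these differences. Among the 7 genes whose sequences are shown, Tpra1, AU022751, D6Ertd527e, Bub1b, Senp8 and Bcl2l10 were called lower in ZH KO oocytes, and Gdf9 was not. Tpra1, AU022751, D6Ertd527e and Senp8 were named for calls that include those in ZH oocytes, so nothing about the element is read from this.

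Open chromatin at the members' start sites was read from ATAC-seq peaks, which the authors called per library, in 3 Het and 3 KO libraries of CabZ GV oocytes. A peak overlapped the 500 bases on either side of the start site for 40, 87 and 128 of the 200 members in the Het libraries (20%, 43.5% and 64%) and for 85, 36 and 44 in the KO libraries (42.5%, 18% and 22%). Over all eligible genes the shares were 12%, 24.7% and 44.6% in Het and 18.1%, 5.48% and 7.25% in KO. Over those with at least 1 FPKM in CabZ Het oocytes they were 15.5%, 32.9% and 57.4% in Het. In KO they were 26.5%, 8.52% and 11.6%. The libraries held 43399, 67074 and 111327 peaks in Het and 46070, 19160 and 29600 in KO, and within each group the number of members with a peak had the order of the number of peaks. A peak in all 6 libraries was found for 3 members (1.5%, against 0.694% of all eligible genes and 1.05% of those with at least 1 FPKM). A peak in none was found for 49 members (24.5%, against 45.9% and 31.3% of the same genes). A peak in all Het and no KO library was found for 6 members (3%, against 2.16% of eligible genes) and the reverse for 2 (1%, against 0.0664%). The shares of the groups overlapped, and no test was run.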

How the data were processed

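Poly(A)-primed Smart-seq2 libraries of 31 RNA samples and ATAC-seq peak lists of 6 were used. According to the methods and the submitters' processing notes, reads were aligned to mm10 (GRCm38) with STAR 2.5.3a and quantified in Partek, and ATAC reads with Bowtie2 2.3 and MACS2. The authors deposited FPKM values plus a constant (0.01 in the ZH table, 0.001 in the Zscan4 table), computed over gene span. The CabZ tables hold a deposited score, FPKM divided by span once more and scaled to equal column sums plus 0.01, from which FPKM were restored. The deposited peak lists give a score, a fold enrichment ratio and -log10 p and q values, of which only positions were used.

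Levels were compared as log2(FPKM + 1) with limma 3.58.1 in R 4.3.3 over every gene with a mean of at least 1 FPKM, with Benjamini-Hochberg adjustment over all genes tested. Genes were called where the change was more than 2-fold and the adjusted p under 0.05. Fold changes on this scale are understated for low genes. The study used Partek's own test, for which limma stands in. Low values were within 0.05 of whole reads for 81.2% to 87.2% of values per library, too few for a count test. On simulated data, limma recovered 71.5% of 200 genes changed 4-fold among 7883 in the CabZ embryo comparison (6 false calls), 96% among 5792 in the ZH comparison (1) and 96% among 4293 in the Zscan4 comparison (2). The changed genes were drawn only from those with a higher mean level, and normal noise was drawn independently for each gene. These rates therefore do not cover members at low levels.

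The members and all gene lists were chosen with earlier results of these data known. Named genes were the 12 lowest by the rule, the 8 largest called changes in each direction and comparison, up to 8 members called in more than 1 comparison, up to 4 members of each list by oocyte level, genes at the edge of the rule, and clearance and storage genes that were called. Dynlt1b, Fbxw21 and those of the 15 members called in opposite directions that this rule leaves out were named after their values were seen. Alternatives were another pseudocount, filter, scaling, threshold, membership, sample choice and replicate block, and leaving out each replicate.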

Additional observations from a re-analysis of the deposited data

Results flagged for a closer look

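Of 48 groups of 4 libraries looked at for the members described most closely, 3 held a library far from the other 3, where chance alone flags about 1 group in 20. Tubb2a was at 101 FPKM in CabZ KO 2-cell replicate 1 and at 53.6 to 59.3 FPKM in the other KO embryo libraries, all of them above both Het libraries of the test. Ooep was at 446 FPKM in CabZ KO 2-cell replicate 4 and at 127 to 173 FPKM in the others. Plat was at 51.2 FPKM in ZH KO replicate 2 and at 4.99 to 11.4 FPKM in the others.

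The share of reads on the members moved in opposite directions at the 2 stages of the CabZ line. It was 1.15 percentage points lower in KO than in Het oocytes (a difference of -1.15), with no overlap, and 1.59 points higher in KO embryos than in Het replicates 3 and 4, again with no overlap. The difference between the stages was not tested. The Het oocytes and Het embryos 1 and 2 had chosen the members. That choice favours genes higher in Het oocytes and lower in Het embryos, so nothing is read from the opposite directions. For 19 members, every KO oocyte library lay below every Het oocyte library while every KO embryo library lay above both Het embryo libraries (9.5% of the members, beside 1.58% of all eligible genes), a difference that was not tested either. Each direction alone was also more frequent among members. Of them 16.5% lay below in oocytes (7.74% of eligible genes) and 60.5% above in embryos (23.8% of all genes listed there).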

How the results depend on the processing

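The median over the members kept its sign in all 3 comparisons, and no call among the named genes turned to the opposite direction, under the alternatives that were run. Among the smaller groups in ZH oocytes, the Fbxw median of -0.11 became 0.04 when scaled to the reads of the table, and that of the oxidative phosphorylation members went from 0.12 to -0.02 with median scaling. In CabZ 2-cell embryos, 75 members were called higher and 1 lower. Leaving out each replicate gave 15 to 81 higher, 15 without CabZ Het replicate 3, and 0 to 1 lower. Among the 100 lowest genes of the rule 45 were higher. No member was lower (0) with a pseudocount of 0.1, without a filter, with a filter at 5 FPKM, among the 100 lowest genes, with values as deposited, with all 4 Het libraries, or with the rule and test on swapped Het replicates, and 2 were lower among the 300 lowest. The median of 1.02 was 1.44 with a pseudocount of 0.1, 0.80 without a filter, 1.47 at 5 FPKM, 1.28 with median scaling, and 0.87 to 1.08 without each replicate. All genes tested gave 1236 higher and 1567 lower, 936 and 1200 without a filter, 1356 and 445 as deposited, and 1680 and 1101 with median scaling, which moved the median of all genes from -0.07 to 0.19. In ZH oocytes, 8 higher and 54 lower became 24 and 104 with no fold threshold and 3 and 30 among the 100 lowest. The higher count was 4 with median scaling and 5 with quantile normalization, and without each replicate it was 5 to 11, 5 of them without ZH Het replicate 2, while the lower count was 46 to 63. The median of -0.60 was -0.75 with median scaling, where the median of all genes was -0.19, and -0.68 to -0.55 without each replicate. All genes gave 606 and 417, and 1485 and 1521 with no fold threshold. With Zscan4 OE, 0 to 1 member was higher without each replicate, 1 without OE replicate A, and the median of 0.26 was 0.19 to 0.35. The cause of these shifts was not tested beyond what each alternative changes.

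Deviations of libraries with the same number correlated at -0.407, 0.385, -0.117 and 0.395 in ZH and at 0.114, -0.162 and 0.148 in Zscan4. Libraries with different numbers gave -0.436 to 0.475 in ZH and -0.272 to 0.168 in Zscan4. In CabZ the same numbers gave 0.131 and 0.00502. There the 2 Het libraries deviate by equal and opposite amounts, so these values cannot show or exclude pairs. The numbers are not taken as pairs. With a replicate block, 63 members were higher and 1 lower in CabZ embryos (median 1.06), 7 and 52 in ZH oocytes (-0.60) and 0 and 0 with Zscan4 OE (0.22). Of the named genes called, 7 of 40 in CabZ embryos and 27 of 43 in ZH oocytes were called under every alternative (of the members among them, 7 of 33 and 20 of 33). In the CabZ embryos 32 of the 40 lost their call without some replicate and 19 under another setting. Only 2 Het libraries limit the CabZ embryo comparison, and genes under 1 FPKM limit all 3.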
